A study of Mus musculus with 2 samples.

Results

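Sterol and fatty acid synthesis genes were read on 2 mouse expression arrays, 1 for activated CD4 T cells labelled Gfi1 knock out and 1 for cells labelled Gfi1 wild type. The set held 33 genes: the enzymes that make cholesterol, the SREBP proteins and their regulators, the enzymes that make and modify fatty acids, and a pair of sterol exporters. Every probe that the platform annotation assigns to one of these symbols was taken, 45 probes in all, of which 44 exceeded the detection floor on at least 1 array. This gave values for 32 of the 33 genes, all of them detected on both arrays, out of 13411 genes detected. No probe was named for Acat2, which is not analysed here.

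Both samples were naive CD4 T cells from the spleen of C57BL/6 mice. According to the labels they were stimulated for 2 days with IL-2 (10 ng/ml) on antibody against TCR-β (3 µg/ml) and CD28 (1 µg/ml), while antibodies to IL-4 and to IFN-γ (5 µg/ml each) were present in both cultures. The groups differed by label in Gfi1, a zinc-finger repressor of transcription, and the title of the series names its question, the role of Gfi1 in the T helper 1 programme. The labels do not give how the knockout was made, the age of the mice or whether animals were pooled.

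Dividing T cells need membrane, and activated lymphocytes are known to switch on cholesterol and fatty acid synthesis through the SREBP transcription factors. When sterols are scarce, the escort protein SCAP carries SREBP from the endoplasmic reticulum to the Golgi, where it is cut and released to the nucleus; when sterols are plentiful, INSIG proteins hold the complex back. Oxidised sterols act through the nuclear receptor LXR, which turns on exporters such as ABCA1 and ABCG1. Many promoters of the synthesis genes are known to combine a sterol element bound by SREBP with CCAAT boxes bound by the factor NF-Y.

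Promoter windows of 4 genes are printed, chosen for the step or the measured difference of the gene. They are Hmgcs1, the earliest enzyme of the pathway that was measured; Cyp51, which had the lowest difference among the cholesterol enzymes; Fasn, which had the lowest difference of all 32 genes; and Abca1, which had the highest difference among the genes with a window. The windows run from 250 bases before to 50 bases after the RefSeq start in build GRCm38.p6, 5′ to 3′ on the strand of the gene. Hmgcs1 is at chr13:119690101-119690400 (+ strand), Cyp51 at chr5:4104648-4104947 (- strand), Fasn at chr11:120824498-120824797 (- strand) and Abca1 at chr4:53159846-53160145 (- strand). Capitals mark CCAAT or its reverse complement ATTGG, the E-box CACGTG, and the sterol element TCACNCCAC.
Hmgcs1: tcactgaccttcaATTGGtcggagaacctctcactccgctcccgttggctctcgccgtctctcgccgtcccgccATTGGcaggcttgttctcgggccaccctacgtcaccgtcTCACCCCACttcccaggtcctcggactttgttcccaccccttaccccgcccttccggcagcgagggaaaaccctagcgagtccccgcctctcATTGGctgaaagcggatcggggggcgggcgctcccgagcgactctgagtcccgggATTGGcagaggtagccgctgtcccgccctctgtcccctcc
Cyp51: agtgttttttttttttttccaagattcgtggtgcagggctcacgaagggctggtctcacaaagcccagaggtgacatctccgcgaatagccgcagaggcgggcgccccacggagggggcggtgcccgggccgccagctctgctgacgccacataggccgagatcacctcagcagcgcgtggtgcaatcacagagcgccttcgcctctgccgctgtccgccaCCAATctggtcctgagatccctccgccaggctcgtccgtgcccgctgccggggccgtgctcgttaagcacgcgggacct
Fasn: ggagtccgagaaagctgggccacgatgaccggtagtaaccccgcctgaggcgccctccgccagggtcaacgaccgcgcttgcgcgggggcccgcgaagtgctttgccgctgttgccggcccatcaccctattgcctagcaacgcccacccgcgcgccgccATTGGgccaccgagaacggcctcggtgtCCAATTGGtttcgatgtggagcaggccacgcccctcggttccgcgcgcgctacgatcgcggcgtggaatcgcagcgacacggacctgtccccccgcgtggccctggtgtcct
Abca1: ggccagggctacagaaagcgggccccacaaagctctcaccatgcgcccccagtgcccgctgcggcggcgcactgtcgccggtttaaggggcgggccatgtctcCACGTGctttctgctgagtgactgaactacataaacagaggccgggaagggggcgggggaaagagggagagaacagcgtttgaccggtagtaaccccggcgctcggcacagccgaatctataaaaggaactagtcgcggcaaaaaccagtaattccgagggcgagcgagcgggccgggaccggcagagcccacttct

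The Hmgcs1 window held the sterol element, its first base 137 bases before the start, together with 4 CCAAT boxes. Cyp51 held 1 CCAAT box and Fasn held 3, of which 2 share bases in the run CCAATTGG. Abca1 held no CCAAT and 1 E-box.

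Each array had 59305 spots of 55681 probes, and values are log2 signals from which the array's 75th percentile was subtracted (269 units in the knockout-labelled library and 263 units in the wild-type-labelled library). With 1 array per label there is no spread between animals or cultures, no test was possible, and no p-value is given. Spread within an array was taken from probes printed on 10 spots each, 399 in all. Their difference between the arrays had a median SD over spots of 0.11 (log2) for the 63 probes at 50 to 500 units. It was 0.05 for the 103 probes at 500 to 5000 units and 0.04 for the 40 above. The rest were dimmer. Below, a spot SD is the value for the signal class of the gene, taken from its mean signal over probes. For genes that also have a dim probe, such as Insig2, Acaca and Acly, this can understate the noise. The Gfi1 probe read 18100 units in the knockout-labelled library and 4260 units in the wild-type-labelled library, the opposite of what a probe within deleted sequence would show. Where the probe lies is not given, and a probe outside the deletion checks nothing, so every direction rests on the labels. The arrays also differed in sex-linked transcripts, since Xist read 3.86 and Eif2s3y 3870 units in the knockout-labelled library, against 447 and 2.91 units in the wild-type-labelled library. Sex and genotype by label cannot be told apart in any difference below.

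None of the 32 genes differed by 2-fold or by 1.5-fold (log2 0.58) in either direction. Among all detected genes, 3.62% were higher by 2-fold or more in the knockout-labelled library and 1.52% were lower by as much, while 7.67% were higher and 4.25% lower by 1.5-fold. Most of the set is bright, with 27 of 32 genes at 500 units or more on an array, and among all such genes only 4.54% were higher and 1.17% lower by 1.5-fold. The differences within the set were small and mostly ran one way. Of the 32 genes 26 were lower in the knockout-labelled library, or 81.3%, against 58.4% of all detected genes, and their median log2 difference was -0.18, against -0.05 for all detected genes. Since the zero of the scale depends on how the arrays are scaled, the count was also taken against the median of all detected genes: 21 of the 32 genes lay under it, against 50% of all genes by construction, 14 lay under the lower quartile of all genes (-0.20) and 3 lay over the upper quartile (0.14). With cyclic loess in place of the percentile, 21 of the 32 genes were below 0 (65.6%, against 47.5% of all genes). Among genes that reached 500 units on an array, 23 of the 27 set members were lower, against 63.4% of all such genes, with medians of -0.18 and -0.06.

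**Figure D1:**
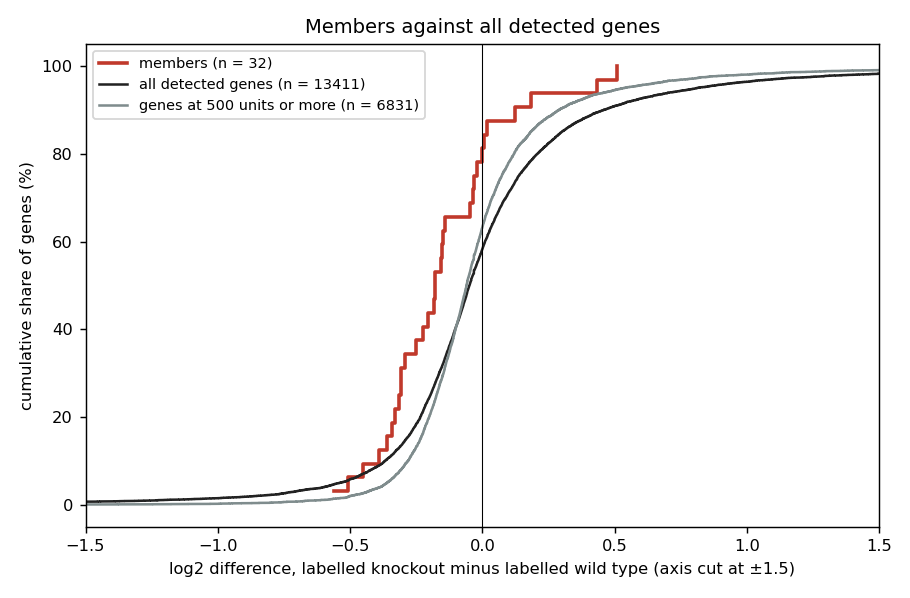
Cumulative share of genes (%) against the log2 difference, labelled knockout minus labelled wild type, for the 32 set members, all 13411 detected genes, and the 6831 genes at 500 units or more on an array. The line of the set lies to the left of both others over most of its range, with its median at -0.18, and it starts at -0.56 and ends at 0.51, within the 1.5-fold limits.

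Compared with the noise of the arrays, 24 of the 32 differences were larger than 2 spot SDs, 20 of them lower and 4 higher in the knockout-labelled library. Among all detected genes, 30.3% were lower and 20.1% higher by that measure, so many genes of these arrays pass it, and it does not include the spread between cultures. Those shares also cover dim genes, whose spot SD is larger (0.35 at 15 to 50 units), while 27 set members reach 500 units on an array. The share among all genes at 500 units or more was not computed, so counts and shares are not like for like. Of the 10 genes read by several detected probes, 7 had all their probes on the same side of 0. The other 3, Tm7sf2, Hsd17b7 and Fads2, lay within 0.02 of 0. The same share among all 3655 genes with several detected probes was not computed, so the count has no background beside it.

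**Figure D2:**
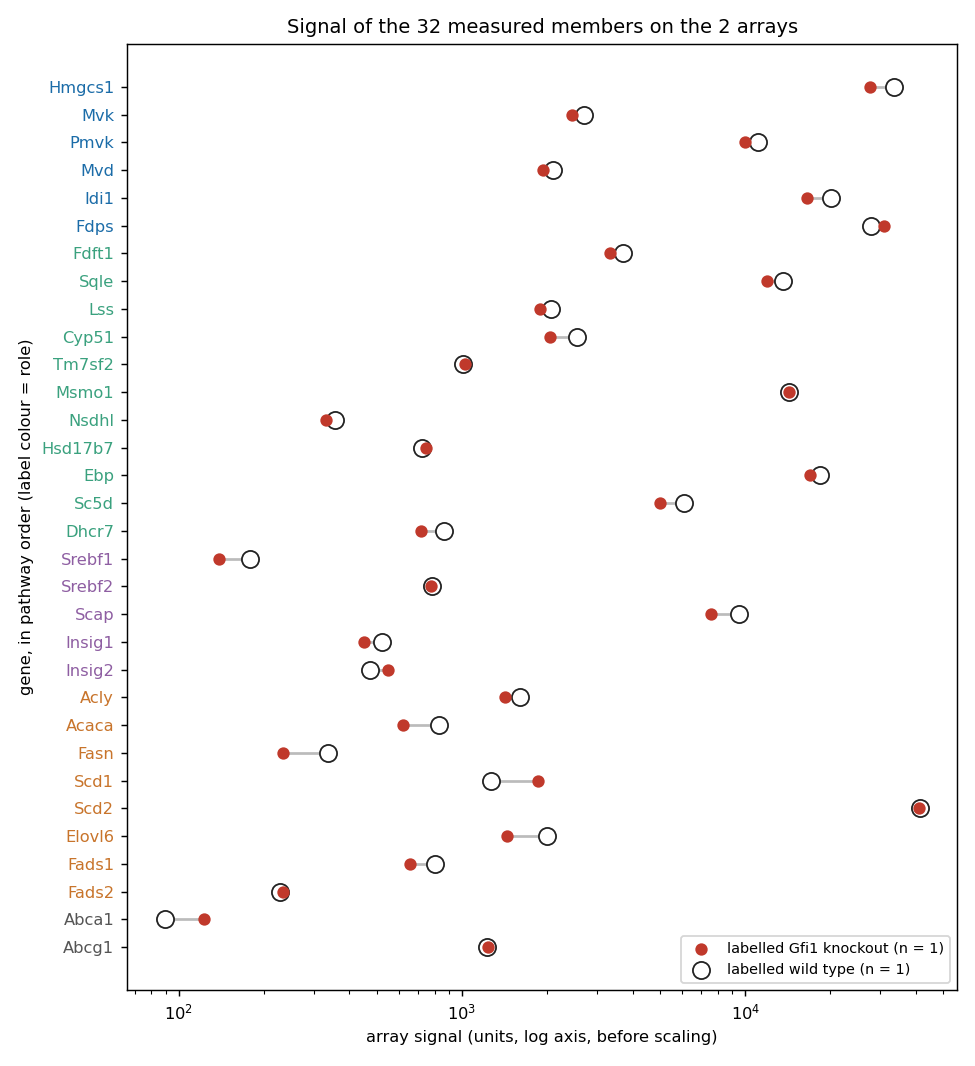
Array signal in units (log axis, before scaling) of the 32 measured genes, in pathway order, for the knockout-labelled library (filled) and the wild-type-labelled library (open), 1 array each. The filled point lies to the left in most rows, and to the right in rows such as Scd1 (1850 against 1270 units) and Abca1 (123 against 89.1 units).

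The early enzymes, which build the isoprenoid units of sterols from acetyl-CoA, were lower in 5 of 6 cases, with a median of -0.18. For this and the later counts by group, the background is the 58.4% of all detected genes that were lower. The share was 63.4% among genes at 500 units or more on an array. Each group is small, so its count is a coarse measure. Hmgcs1, which makes HMG-CoA and whose promoter is printed above, read 27600 units in the knockout-labelled library and 33400 units in the wild-type-labelled library, a log2 difference of -0.31. This is a ratio of 0.81 after scaling, and more than 2 spot SDs from 0. Idi1, the isomerase that interconverts the isoprenoid units of the pathway, read 16500 units in the knockout-labelled library and 20100 units in the wild-type-labelled library and differed by -0.32.

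The kinases and the decarboxylase that follow HMG-CoA reduction had differences closer to 0. Mvk, mevalonate kinase, differed by -0.18 ± 0.03 (SD over 2 probes), with means of 2437 units in the knockout-labelled library and 2700 units in the wild-type-labelled library. Pmvk, the next kinase, differed by -0.18 on both of its probes, at 7040 and 14200 units in the knockout-labelled library, against 7810 and 15700 units in the wild-type-labelled library. Mvd, which decarboxylates the product, read 1930 units in the knockout-labelled library and 2100 units in the wild-type-labelled library (-0.15). Fdps, which joins the units into farnesyl pyrophosphate, the branch point to sterols and prenylated proteins, was the exception: it read 31000 units in the knockout-labelled library and 27800 units in the wild-type-labelled library, and was higher by 0.12.

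From squalene onward, 10 of 11 genes were lower, with a median of -0.16 and a range of -0.34 to 0.02. Fdft1, squalene synthase, the first enzyme committed to sterols, read 3330 units in the knockout-labelled library and 3700 units in the wild-type-labelled library (-0.18). Its other probe read 6.29 units in the knockout-labelled library and 5.03 units in the wild-type-labelled library, under the floor on both arrays, and did not enter the value. Sqle, the epoxidase that oxidises squalene and a rate-limiting step, read 11900 units in the knockout-labelled library and 13600 units in the wild-type-labelled library (-0.23). Lss, which closes the rings to make lanosterol, read 1890 units in the knockout-labelled library and 2060 units in the wild-type-labelled library (-0.16).

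Among the enzymes that trim lanosterol, differences ranged between about -0.3 and 0. Cyp51, the demethylase that first acts on lanosterol, read 2050 units in the knockout-labelled library and 2540 units in the wild-type-labelled library, a difference of -0.34 and a ratio of 0.79; of all detected genes, 11.4% had a lower difference. Sc5d, the desaturase of the late steps, read 5020 units in the knockout-labelled library and 6080 units in the wild-type-labelled library (-0.31). Dhcr7, the reductase that turns 7-dehydrocholesterol into cholesterol, read 718 units in the knockout-labelled library and 861 units in the wild-type-labelled library (-0.29). All 3 exceeded 2 spot SDs.

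The other enzymes of these steps had differences closer to 0. Msmo1, the C4-methyl oxidase, listed in the platform annotation under its older symbol Sc4mol, read 14300 units on both arrays (-0.03 after scaling). Tm7sf2, a sterol reductase, differed by 0.00 ± 0.03 (SD over 2 probes), and Hsd17b7, a ketosteroid reductase of the pathway, by 0.02 ± 0.05 (SD over 2 probes). Nsdhl, which acts with Msmo1 in removing the C4 methyl groups, differed by -0.14 ± 0.09 (SD over 2 probes), less than 2 spot SDs. Ebp, the sterol isomerase, read 16900 units in the knockout-labelled library and 18300 units in the wild-type-labelled library (-0.15), more than 2 spot SDs from 0. Nsdhl and Ebp are on chromosome X, and without them 24 of 30 genes were lower, with a median of -0.18.

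**Figure D3:**
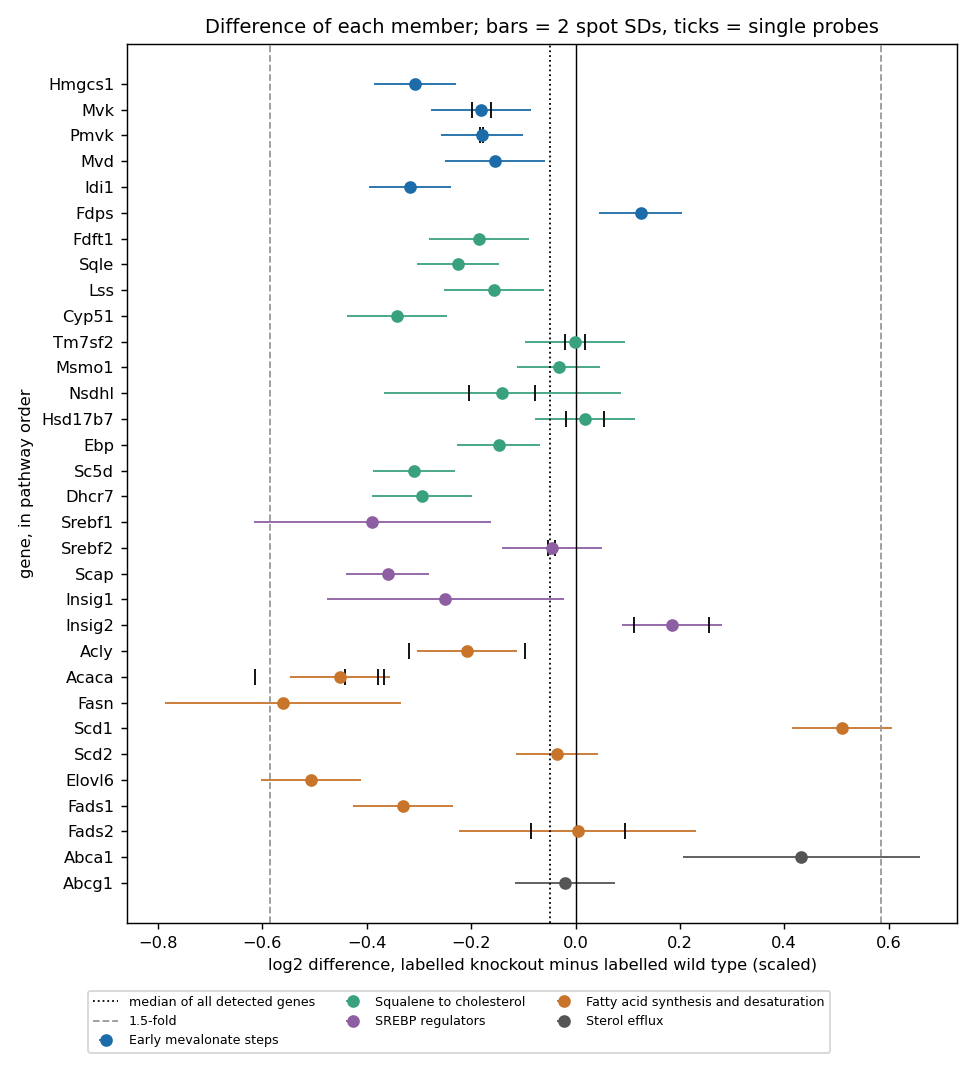
Log2 difference of each gene, labelled knockout minus labelled wild type, in pathway order and coloured by role. Horizontal bars show 2 spot SDs of the signal class on each side, short ticks the single probes of genes with several, the dotted line the median of all detected genes, and the dashed lines 1.5-fold. No point passes 1.5-fold, and Fasn (-0.56), Elovl6 (-0.51) and Scd1 (0.51) lie nearest to it.

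The regulators of SREBP were lower in 4 of 5 cases, with a median of -0.25. Srebf1, which encodes the SREBP form tied mainly to fatty acid genes, read 139 units in the knockout-labelled library and 178 units in the wild-type-labelled library, a difference of -0.39. Srebf2, which encodes the form tied mainly to cholesterol genes, differed by -0.05 ± 0.01 (SD over 2 probes), close to the median of all detected genes. No test of the difference between the genes could be made. The Srebf1 probe is dimmer and its spot SD of 0.11 is larger than the 0.05 of Srebf2.

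Scap, the escort of SREBP, read 7570 units in the knockout-labelled library and 9500 units in the wild-type-labelled library (-0.36), which is more than 2 spot SDs. Insig1, which holds SCAP back and is itself a known SREBP target, read 450 units in the knockout-labelled library and 523 units in the wild-type-labelled library (-0.25). Insig2, the related retention protein that is not driven by SREBP in the same way, was higher on both of its probes. These read 932 and 324 units in the knockout-labelled library, against 763 and 293 units in the wild-type-labelled library, and gave differences of 0.26 and 0.11. Both probes lie at feature numbers above 50000, where 38.1% of spots under 500 units and 6.98% of brighter ones differed by 1.5-fold, against 21.1% and 5.74% of spots at lower numbers.

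Fatty acid synthesis and desaturation genes had the widest spread of the groups, between -0.56 and 0.51, and 6 of 8 were lower. The 4 set members of the chain-building route, Acly, Acaca, Fasn and Elovl6, were lower. Other detected fatty acid genes outside the set ran both ways. Elovl7, an elongase, was higher by 0.39, and Slc25a1, the citrate carrier, by 0.22. Acss2, which makes acetyl-CoA from acetate, was higher by 0.09, and Tecr, a reductase of elongation, by 0.03. Acacb (-0.37), Elovl5 (-0.18), Hsd17b12 (-0.14), Mid1ip1 (-0.11) and Elovl1 (-0.08) were lower. Acacb was dim, at 30.3 units in the knockout-labelled library and 38.3 units in the wild-type-labelled library, in a signal class with a spot SD of 0.35. Elovl7, Slc25a1 and Acacb were read on spots above feature number 50000. Acly, which supplies acetyl-CoA from citrate, gave -0.10 on a probe at 17700 units in the knockout-labelled library and 18500 units in the wild-type-labelled library. A dimmer Acly probe gave -0.32, so the mean of -0.21 ± 0.16 (SD over 2 probes) depends on which probe is read.

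Acaca, acetyl-CoA carboxylase, which makes malonyl-CoA and is the rate-limiting step, was the member with the most probes. Its 4 probes read 5780, 5760, 85.8 and 51.2 units in the knockout-labelled library, against 7290, 7320, 114 and 76.6 units in the wild-type-labelled library. All 4 were lower, by -0.37, -0.38, -0.44 and -0.61, and the mean was -0.45 ± 0.11 (SD). Fasn, the fatty acid synthase that extends the chain to palmitate, read 233 units in the knockout-labelled library and 336 units in the wild-type-labelled library. Its difference of -0.56 was the lowest of the set, a ratio of 0.68, and 4.69% of all detected genes had a lower one. With the floor at the 75th percentile it was -0.35, and Elovl6 (-0.51) and Acaca (-0.37) were then lower. Elovl6, which elongates palmitate to stearate, read 1440 units in the knockout-labelled library and 2000 units in the wild-type-labelled library (-0.51). Fasn and Elovl6 were each read on 1 spot above feature number 50000, and 8 members of the set, with Hmgcs1, Pmvk, Sqle, Msmo1, Insig2 and Scd2, were read only on such spots.

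The desaturases did not share one direction. Scd1, stearoyl-CoA desaturase, which makes oleate, read 1850 units in the knockout-labelled library and 1270 units in the wild-type-labelled library. Its difference of 0.51, a ratio of 1.42, was the highest of the set, and 91.0% of all detected genes had a lower one. Its relative Scd2 read 41200 units in the knockout-labelled library and 41300 units in the wild-type-labelled library (-0.04). Scd3, which is outside the set, differed by 0.37 ± 0.14 (SD over 2 probes). These genes are close in sequence, and how far their probes cross-hybridise was not tested. Fads1, the delta-5 desaturase of polyunsaturated fatty acids, read 653 units in the knockout-labelled library and 803 units in the wild-type-labelled library (-0.33). Fads2, the delta-6 desaturase, lay at 0.00 ± 0.13 (SD over 2 probes), with 1 probe on each side of 0.

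The sterol exporters differed from each other. Abca1, which loads cholesterol onto apolipoprotein A-I, read 123 units in the knockout-labelled library and 89.1 units in the wild-type-labelled library, a difference of 0.43 and a ratio of 1.35, and more than 2 spot SDs. Abcg1, which passes sterol to lipoprotein particles, read 1240 units in the knockout-labelled library and 1230 units in the wild-type-labelled library (-0.02).

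A further list of sterol and fatty acid genes, drawn up with earlier results of these data known, was divided in direction much as all detected genes were. Of its 49 genes 41 were detected, 23 lower and 18 higher in the knockout-labelled library. The share lower was 56.1%, against 58.4% of all detected genes, and the median was -0.06, close to that of all detected genes. Only Soat2, which esterifies cholesterol for storage, passed 2-fold: it read 515 units in the knockout-labelled library and 229 units in the wild-type-labelled library, a ratio of 2.20 (log2 1.14) from 1 probe at feature number 59247. The related Soat1 read 88.1 units in the knockout-labelled library and 84.6 units in the wild-type-labelled library (0.03). Of the other fatty acid enzymes on that list, 11 of 17 were lower (64.7%), with a median of -0.11. Of the other sterol and isoprenoid enzymes 5 of 9 were lower (55.6%), with a median of -0.04. Both shares lie near that of all detected genes.

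Of the genes for sterol transport and LXR, 6 of 10 were higher and 4 lower, with a median of 0.09. The share lower was 40%, against 58.4% of all detected genes, in a list of only 10 genes. Npc1 and Npc2, which move cholesterol out of the lysosome, differed by 0.54 (304 units in the knockout-labelled library and 204 units in the wild-type-labelled library) and by 0.41 (14000 units in the knockout-labelled library and 10300 units in the wild-type-labelled library). Nr1h2, which encodes LXR beta, lay at 0.09. Nr1h3, which encodes LXR alpha, lay at -0.12 ± 0.31 (SD over 2 probes). At the other end were Sult2b1, which sulphates sterols (-0.51, 318 units in the knockout-labelled library and 443 units in the wild-type-labelled library), Idi2, a relative of Idi1 (-0.49 ± 0.33, SD over 3 probes), and Fads3, a relative of the desaturases (-0.48, 226 units in the knockout-labelled library and 309 units in the wild-type-labelled library). Of the genes that process and turn over SREBP, 3 of 5 were lower (60%), near the share of all detected genes. The site-1 protease gene Mbtps1 lay at -0.47 ± 0.14 (SD over 2 probes) and the site-2 protease gene Mbtps2 at 0.29 ± 0.06 (SD over 2 probes).

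Markers of some cell types also differed between the arrays, and those of others did not or were not detected. Of 7 CD4 T cell markers, all well over the floor, 6 were lower and 1 was higher (median -0.23), and their summed signal was 146585 units in the knockout-labelled library and 171956 units in the wild-type-labelled library. The 7 CD8 T and NK cell markers had summed signals of 604 units in the knockout-labelled library and 282 units in the wild-type-labelled library. Of these, 4 exceeded the floor in the knockout-labelled library alone, so they could come out only as higher. The 3 above the floor on both arrays were higher too. Cd8b1 read 244 units in the knockout-labelled library and 127 units in the wild-type-labelled library. Klra1 read 240 units in the knockout-labelled library and 116 units in the wild-type-labelled library. Its probes differed widely (log2 1.01 ± 0.98, SD over 2 probes). Zbtb16 read 17.5 units in the knockout-labelled library and 15.9 units in the wild-type-labelled library, just over the floor. Of 6 detected B cell markers 5 were higher, with summed signals of 1117 units in the knockout-labelled library and 524 units in the wild-type-labelled library. Ms4a1 (221 units in the knockout-labelled library and 18.9 units in the wild-type-labelled library) and Blnk (386 units in the knockout-labelled library and 30.6 units in the wild-type-labelled library) make up most of that gap, and the other 4 summed to 510 units in the knockout-labelled library and 474 units in the wild-type-labelled library. Of 5 detected macrophage and monocyte markers 3 were higher, with a median of 0.01. The summed signal of the macrophage and monocyte list was 651 units in the knockout-labelled library and 330 units in the wild-type-labelled library, and that gap is Mpeg1 alone (335 units in the knockout-labelled library and 11.7 units, under the floor, in the wild-type-labelled library), since the other 6 markers summed to 316 units in the knockout-labelled library and 318 units in the wild-type-labelled library. None of 6 adipocyte and hepatocyte markers was detected on either array. In bulk RNA, fewer cells of a type and less RNA per cell cannot be told apart, and the part that a shift in cell types has in the values above was not tested.

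The promoter windows were searched for 4 motifs, as a description with no test. RefSeq windows were matched for 26 of the 33 genes by symbol, some with several starts, 34 windows in all. CCAAT, searched on both strands, was found in 20 of the 26 genes (76.9%), against 41.1% of all 27025 genes with a window and 42.3% of the protein-coding ones; by window the shares were 61.8% and 37.4%. All 9 genes with a window in the group from squalene onward held it, as did 5 of 6 early genes, 4 of 5 SREBP regulators, 2 of 5 fatty acid genes and 0 of 1 exporter. The E-box CACGTG was found in 6 of the 26 genes (23.1%), against 8.09% of all genes. The sterol element TCACNCCAC was found in Hmgcs1 alone (3.85% of the 26 genes), against 1.44% of all genes; other spellings of the element were not searched. The LXR element, a direct repeat of AGGTCA with any 4 bases between, was found in none of the 26 genes and in 0.0148% of all genes. Imperfect forms of this repeat were not searched, so the result does not show that the windows lack an LXR site.

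**Figure D4:**
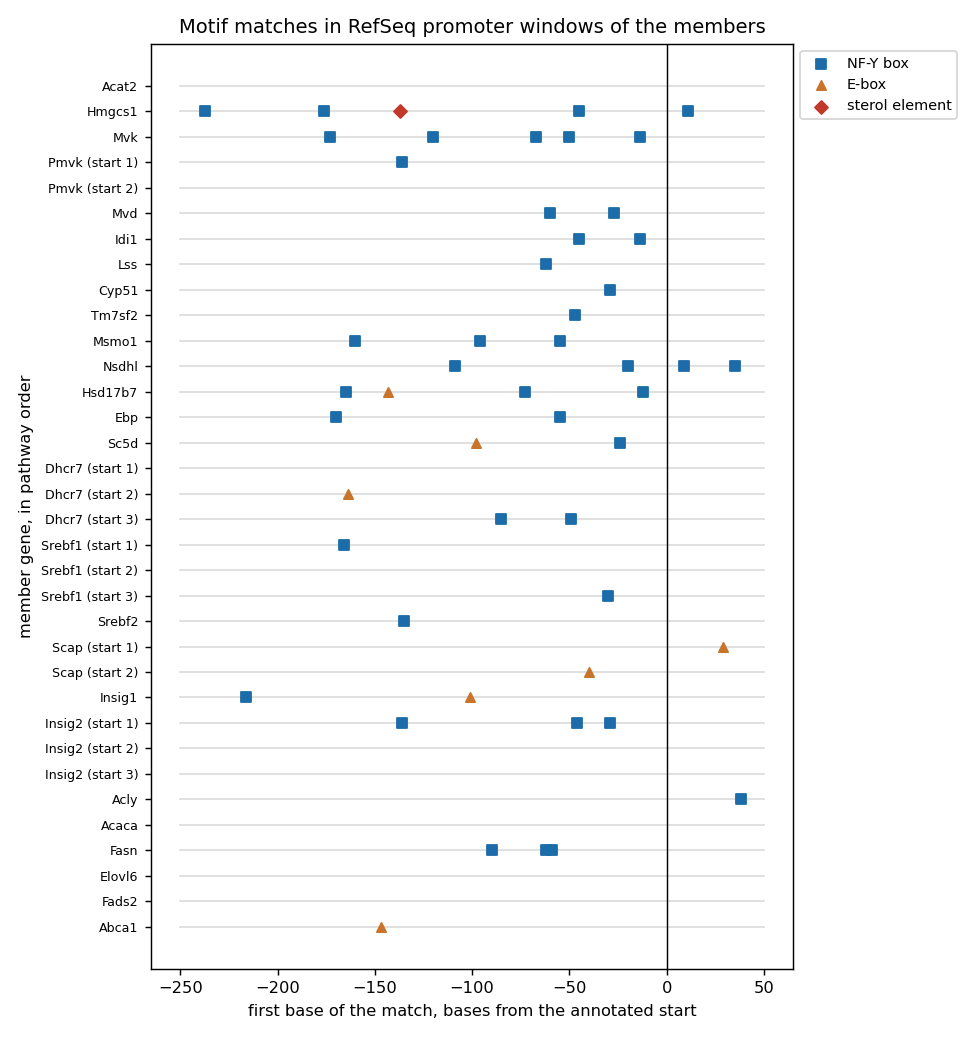
Position of the first base of each match to CCAAT (squares), CACGTG (triangles) and TCACNCCAC (diamond) on either strand, in bases from the annotated start, for the 34 RefSeq promoter windows of 26 set members. Squares appear in most rows of the cholesterol enzymes, and the only diamond is 137 bases before the Hmgcs1 start.

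The array differences of genes with and without CCAAT overlapped. The 20 measured genes with CCAAT in a window had a median of -0.18 and 18 of them were lower, and the 5 measured genes with a window and no CCAAT had a median of -0.36, with 3 lower. The genes without it include Scap, Acaca and Elovl6 on the lower side and Abca1 on the higher.

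The median of the set was below that of all detected genes under each of the 12 other ways of processing tried. It lay between -0.19 and -0.12, while the median of all genes lay between -0.06 and 0.01, and the distance between them was between -0.14 and -0.12. Scaling to the median and leaving the signals unscaled shift every gene alike and cannot move that distance. The value table deposited by the authors is these signals times a near-constant, so it could differ by little. Keeping only probes detected on both arrays cannot change the value of any member, only the median of all genes. The range therefore rests mainly on the remaining alternatives.

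**Figure D5:**
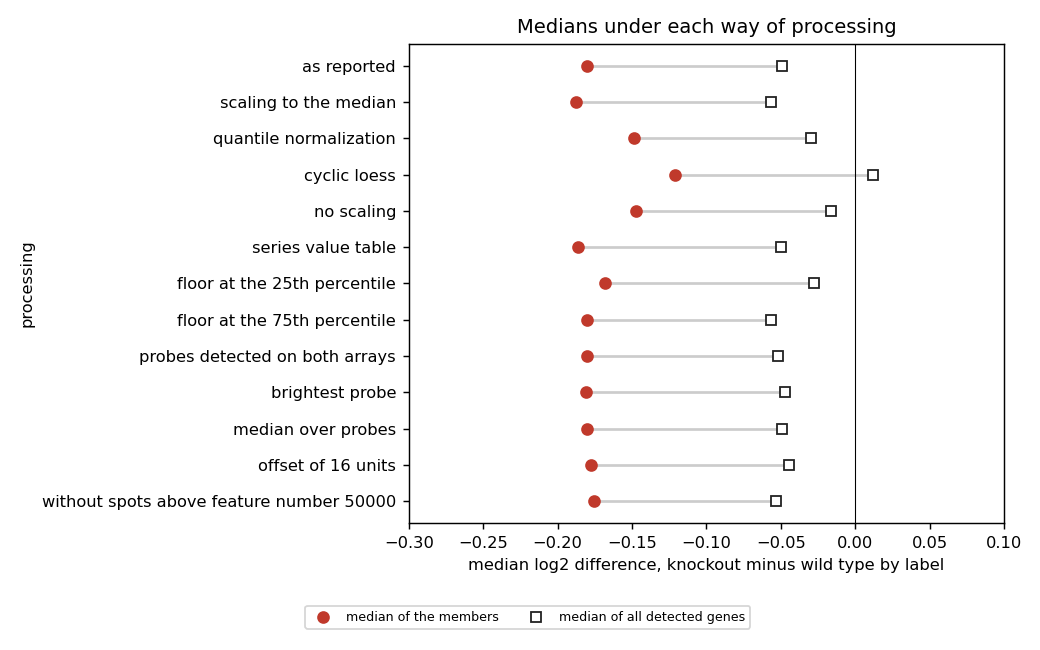
Median log2 difference, labelled knockout minus labelled wild type, of the set (circles) and of all detected genes (squares) under the processing used here and 12 alternatives. The circles stay between -0.19 and -0.12 and to the left of the square in every row.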

How the data were processed

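RNA of 2 cultures was read on 1-colour (Cy3) arrays, 1 per genotype label, from 100 ng of total RNA per the labels' protocols. Per the submitters' processing notes, Agilent Feature Extraction 11.5.1.1 was used. The deposited per-array files give the authors' intensity per spot on a linear scale under a column headed as raw; no source names the background correction behind them. A second deposited table of intensity equals these signals times a near-constant per array (median 2.26 for the knockout-labelled library and 2.27 for the wild-type-labelled library; column medians 34.8 and 34.4), is linear and not centred, and served as an alternative; how the constants were chosen stays unknown.

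Signals were put on the log2 scale, spots of one probe were averaged, and the 75th percentile of the array over probes was subtracted. A probe was detected above the array's median over probes (14.6 units for the knockout-labelled library, 14.2 for wild type by label), a convention in the absence of flags, and an undetected side was set to that floor. A gene's difference averages all of its probes that passed the floor on either array, and signals quoted for genes with several probes are geometric means. Symbols came from the platform annotation, updated through accessions in a RefSeq table of GRCm38.p6 for 29036 spots, through symbols for 2075 and through synonyms for 349; 5 kept the annotation's name and 27840 had none. The files name no build, so coordinates are those of the RefSeq windows alone.

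The members, gene lists, motifs and alternatives were chosen with earlier results of these data known. All members are named whatever their value. Of the other pathway genes the rule names those past 1.5-fold and the 3 largest differences each way. Elovl7, Slc25a1, Acss2, Tecr, Acacb, Elovl5, Hsd17b12, Mid1ip1, Elovl1, Scd3, Soat1, Nr1h2, Nr1h3, Mbtps1 and Mbtps2 were chosen after their values were seen. So were the single markers and the 4 printed promoters. With 1 array per label no test was made. The steps were tested on simulated data. Versions were matplotlib 3.10.9, statsmodels 0.14.6, pandas 2.3.3, numpy 2.4.6 and Python 3.11.15.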

Additional observations from a re-analysis of the deposited data

How the results depend on the processing

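No paired analysis was possible because each label has 1 array and the labels give no replicate number. The 12 alternatives were cyclic loess (span 0.3), quantile normalization, scaling to each array's median, unscaled signals, the value table deposited by the authors, floors at the 25th and the 75th percentile, the brightest probe of a gene, the median over its probes, only probes detected on both arrays, an offset of 16 units, and leaving out spots above feature number 50000, which left 24 set members. No set member passed 1.5-fold or 2-fold under any of them. The count of genes below 0 ranged from 20 (of the 24) to 28. With the floor at the 75th percentile, which left 30 members, the median of the SREBP regulators was -0.15 and that of the exporters, then Abcg1 alone, was -0.021. Of 374 values of single genes under alternatives, 4 differed by 0.10 or more (the median SD between probes of a gene) from those reported: Fdft1 at 0.05 with the floor at the 25th percentile, where its dim probe entered, Acly at -0.10 with the brightest probe and with the floor at the 75th percentile, and Fasn at -0.35 with that floor. Of the 32 genes, 24 kept their sign in every alternative that measured them, 20 below and 4 above 0. The other 8, which changed sign in 15 values, were Fdft1, Tm7sf2, Msmo1, Hsd17b7, Srebf2, Scd2, Fads2 and Abcg1; apart from Fdft1 each lay within 0.05 of 0. Many of these values could hardly move. Scaling to the median and unscaled signals shift every gene alike, and the deposited table is a near-constant multiple. Keeping only probes detected on both arrays changes no member. For the 22 genes with 1 detected probe, the brightest probe and the median over probes return the same value. The low count of moved values and the count of kept signs are thus in part fixed in advance. The number of arrays limits the precision.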
